A study of Mus musculus with 8 samples.

Results

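The genes described here are 42 splicing regulators of mouse liver. They comprise 21 heterogeneous nuclear ribonucleoproteins (hnRNPs, Ptbp1 among them), 10 serine/arginine-rich (SR) splicing factors, the relatives Tra2a and Tra2b, the SR-related proteins Son, Srrm1 and Srrm2, the subunits U2af1 and U2af2, the kinases Clk1 and Clk4, and the cold-inducible RNA-binding proteins Rbm3 and Cirbp. They form a group by name and function, with no threshold on a measured value in the rule, though earlier results of these data were known when the group was drawn up, and are 42 of the 35975 genes in the deposited table. Their 414 annotated transcripts are part of 116728 transcripts that could be matched to a gene.

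The livers came from C57BL/6 mice (C57BL/6J in the study's methods) bought as young adults, in which a catheter fed by an osmotic pump delivered its contents into the portal vein for 2 weeks. The pump held normal saline for 4 libraries and 4-hydroxyphenylacetic acid (4-HPAA), a gut microbe-derived metabolite, for the other 4, so that both groups carried the surgery, the catheter and single housing. RNA-seq was run on whole liver, and the labels call the libraries of a group replicates 1 to 4, each called a liver here. The question was whether the metabolite altered transcripts in the liver it first reaches.

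Splicing regulators decide which exons are kept in a messenger RNA. SR proteins bind exons and mostly favor their inclusion, hnRNPs often repress exons, U2AF recognizes the end of the intron, and Clk kinases phosphorylate SR proteins and so set where in the nucleus they act. Many of these genes regulate themselves: their transcripts can include a poison exon that carries an early stop codon, or retain an intron, and are then degraded by nonsense-mediated decay (NMD) or kept in the nucleus rather than translated.

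The exons behind the switches described further on are shown here, 5′ to 3′ on the transcribed strand, from the GENCODE M21 transcripts of GRCm38. For the poison exons only the stretch up to the first stop codon in frame is printed, and capitals mark that codon. The Srsf3 poison exon is 456 bases long, that of Tra2b 276 bases and that of Tra2a 306 bases.
Srsf3, chr17:29039454-29039487, plus strand: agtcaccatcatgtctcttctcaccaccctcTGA
Tra2b, chr16:22259181-22259261, minus strand: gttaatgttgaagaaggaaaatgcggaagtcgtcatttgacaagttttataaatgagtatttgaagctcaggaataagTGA
Tra2a, chr6:49252965-49253108, minus strand: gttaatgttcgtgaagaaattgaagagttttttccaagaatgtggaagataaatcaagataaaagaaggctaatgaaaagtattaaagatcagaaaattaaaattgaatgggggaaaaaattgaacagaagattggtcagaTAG

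Clk1 and Clk4 share an exon of 91 bases whose skipping shifts the reading frame, shown because the kinases regulate themselves through it. The exons of both paralogs hold the same base at 85 of 91 positions (93.4%).
Clk1, chr1:58420121-58420211, minus strand: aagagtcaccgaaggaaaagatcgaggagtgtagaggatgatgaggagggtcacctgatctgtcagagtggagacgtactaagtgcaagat
Clk4, chr11:51273078-51273168, plus strand: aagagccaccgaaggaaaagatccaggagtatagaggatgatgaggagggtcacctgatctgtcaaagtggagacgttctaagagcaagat

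Hnrnpab and Hnrnpd each have a cassette exon near the end of the coding sequence, 141 and 147 bases long, which leaves the frame intact and separates their main coding transcripts.
Hnrnpab, chr11:51601750-51601890, minus strand: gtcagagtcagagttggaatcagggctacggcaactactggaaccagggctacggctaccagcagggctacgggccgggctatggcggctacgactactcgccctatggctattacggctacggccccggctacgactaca
Hnrnpd, chr5:99963731-99963877, minus strand: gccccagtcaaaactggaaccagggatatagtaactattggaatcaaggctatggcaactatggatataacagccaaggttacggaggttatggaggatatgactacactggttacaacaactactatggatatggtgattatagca

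The libraries held between 29559978 and 30673398 estimated counts, of which the 42 genes took between 0.349% and 0.375%. The 6 hepatocyte markers summed to between 100468 and 128430 CPM (estimated counts scaled to the same library size), and no marker of the other cell types examined was at 0 in all libraries. Globin transcripts of red blood cells were uneven, with a sum of 2437 CPM in saline replicate 2, 637 CPM in 4-HPAA replicate 4 and between 66.2 and 331 CPM in the other 6 livers. In whole liver, fewer cells of a type and less RNA per cell cannot be told apart.

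All 42 genes were expressed in every liver, and none passed the test for a difference between the groups. Adjusted p was under 0.05 for 0 of the 42 genes, and unadjusted p was under 0.05 for 0 (edgeR's quasi-likelihood test). DESeq2 and limma-voom gave the same counts of 0 and 0. Over all 12883 genes tested, the shares called were 0% with the adjusted and 1.75% with the unadjusted p. Groups that do not overlap were found for 0 of the 42 genes against 1.2% of all genes tested. With 4-HPAA, 14 of the genes had a higher and 28 a lower mean level, with a median log2 fold change of -0.02, where the median of all genes was 0.00. This lean to lower levels turned when saline replicate 1 was left out (24 genes higher, median 0.01) or 4-HPAA replicate 2 (25 genes higher, median 0.02).

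**Figure D1:**
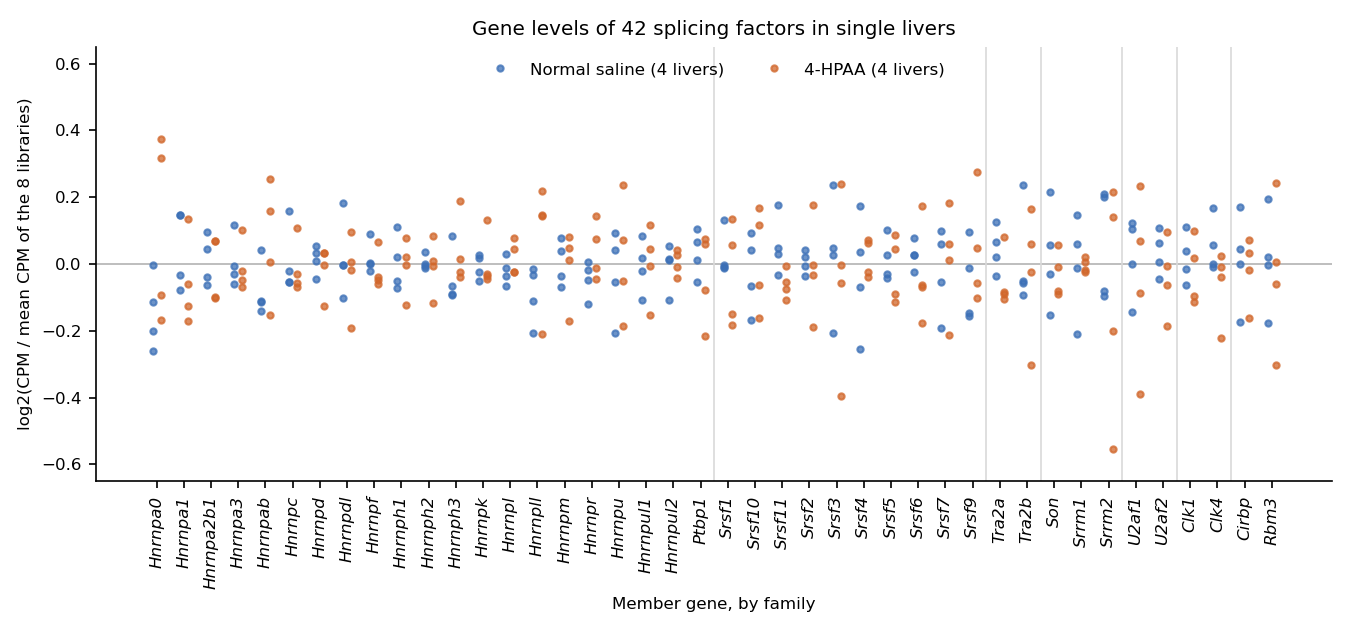
Level of each of the 42 genes in each liver, as log2 of its CPM over its mean CPM across the 8 libraries, grouped by family (vertical lines), with 1 point per liver. In every gene the points of both groups overlap, and the widest scatter is seen for Hnrnpa0, Srrm2, Srsf3 and U2af1.

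Levels were steady from liver to liver. The coefficient of variation (SD over mean, all 8 libraries) ran from 3.28% in Hnrnpl to 17.5% in Hnrnpa0 and was under 10% in 32 of the 42 genes. Its median was 7.06%, beside 12.1% for 12475 other protein-coding genes. The splicing factors were also abundant, with a median of 53.4 TPM (a level scaled to depth and corrected for transcript length) against 8.71 TPM for those other genes. The other genes were not matched for level, and the part of abundance in the lower variation was not tested. Hnrnpa2b1, which packages nascent RNA, had the highest level of the group at 347 TPM and ranged from 333 to 367 TPM. Srsf5, an SR protein, followed at 265 TPM and a range of 255 to 284 TPM, which does not reach that of Hnrnpa2b1. The lowest were Tra2a at 12.9 TPM and Hnrnpr at 13.7 TPM, whose ranges overlap.

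Among the hnRNPs, 10 of 21 had a higher and 11 a lower mean with 4-HPAA, with log2 fold changes between -0.10 (Hnrnpa1) and 0.27 (Hnrnpa0). Hnrnpa0 (chr13:58125879-58128556), an hnRNP that binds AU-rich RNA and has a single annotated transcript of 1 coding exon, came nearest to a difference. It stood at 40.0, 37.1, 33.5 and 34.9 CPM in saline replicates 1 to 4 and at 35.8, 37.6, 50.05 and 52.1 CPM in 4-HPAA replicates 1 to 4. Only 4-HPAA replicates 3 and 4 lay above the saline livers, and the other 4-HPAA livers lay within their range. The log2 fold change was 0.27 (standard error 0.13, adjusted p = 1.00, unadjusted p = 0.0662, edgeR).

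Hnrnpll, known for its role in splicing of the leukocyte receptor gene Ptprc, stood at 25.9, 24.5, 26.2 and 22.9 CPM with saline and at 22.9, 29.3, 29.3 and 30.8 CPM with 4-HPAA. Here 3 of the 4-HPAA livers lay above all saline livers and the first lay at their lower end. The log2 fold change was 0.17 (standard error 0.10, unadjusted p = 0.114, edgeR). Hnrnpab, an A/B-type hnRNP, stood at 102, 90.1, 91.8 and 91.9 CPM with saline and at 89.3, 99.8, 111 and 118 CPM with 4-HPAA, so that saline replicate 1 and 4-HPAA replicate 1 crossed to the side of the other group. Its log2 fold change was 0.15 (standard error 0.10, unadjusted p = 0.140, edgeR).

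The SR factors split into 4 with a higher and 6 with a lower mean with 4-HPAA, between -0.12 (Srsf11) and 0.10 (Srsf9) on the log2 scale. Srsf11 stood at 87.9, 83.1, 96.0 and 86.7 CPM with saline and at 84.7, 78.8, 81.8 and 80.7 CPM with 4-HPAA. Only 4-HPAA replicate 1 reached into the saline range, and the unadjusted p was 0.118 (log2 fold change -0.12, standard error 0.07, edgeR). Srsf3, the smallest SR protein and an adaptor for export of messenger RNA, was at 60.4, 52.3, 44.5 and 53.0 CPM with saline and at 49.3, 39.0, 51.2 and 60.5 CPM with 4-HPAA. The highest livers of the groups were level, and the lowest of all was 4-HPAA replicate 2.

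Tra2a and Tra2b, which bind GAA-rich exon enhancers, both had a slightly lower mean with 4-HPAA (log2 -0.09 and -0.03). Tra2a was at 18.9, 18.1, 17.5 and 16.9 CPM with saline and at 16.3, 16.2, 16.1 and 18.3 CPM with 4-HPAA, where replicate 4 stood above 3 nearly equal livers. Tra2b was at 34.7, 27.6, 28.4 and 28.2 CPM with saline and at 28.9, 23.9, 33.0 and 30.7 CPM with 4-HPAA, and neither group lay to one side.

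The kinases and the U2AF subunits also had lower means with 4-HPAA without passing the test. Clk4 was at 42.3, 42.5, 47.8 and 44.2 CPM with saline and at 43.2, 42.3, 36.5 and 41.5 CPM with 4-HPAA, which is a log2 fold change of -0.11 (standard error 0.08, unadjusted p = 0.179, edgeR). Clk1 was at 67.9, 63.3, 71.4 and 65.3 CPM with saline and at 67.0, 61.9, 61.1 and 70.7 CPM with 4-HPAA, with overlapping groups. U2af1, which contacts the AG at the 3′ splice site, was at 40.1, 36.8, 33.3 and 39.6 CPM with saline and at 34.7, 28.1, 38.6 and 43.3 CPM with 4-HPAA. As for Srsf3 and Tra2b, the lowest U2af1 level was that of 4-HPAA replicate 2.

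Srrm2, a large scaffold protein of nuclear speckles whose gene is overlapped by Elob on the other strand, varied nearly as much as Hnrnpa0. Its levels were 305, 372, 370 and 301 CPM with saline and 374, 355, 280 and 219 CPM with 4-HPAA. The low values of 4-HPAA replicates 3 and 4 gave the group the lower mean, while replicates 1 and 2 lay at the upper end of the saline range (log2 fold change -0.13, standard error 0.16, unadjusted p = 0.432, edgeR).

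Rbm3 and Cirbp, which are both induced by mild cold and stabilize messenger RNA, had their lowest levels in the same livers. Rbm3 was at 65.4, 57.9, 50.5 and 57.0 CPM with saline and at 57.4, 46.3, 54.8 and 67.5 CPM with 4-HPAA. Cirbp was at 27.3, 24.3, 21.6 and 25.1 CPM with saline and at 25.6, 21.7, 24.0 and 24.9 CPM with 4-HPAA. Saline replicate 3 and 4-HPAA replicate 2 were the low livers of both genes. The same livers were the lowest for Srsf3 (44.5 and 39.0 CPM) and U2af1 (33.3 and 28.1 CPM). The pattern was thus not particular to the cold-inducible genes, and the relation of Rbm3 to these other genes was not tested. Over the 8 livers, Pearson's r of the log2 levels was 0.845 (exact permutation test over all pairings, p = 0.0131, 0.0525 after adjustment for 4 relations) and Spearman's rho was 0.714 (exact permutation p = 0.0576, adjusted 0.230). Without 4-HPAA replicates 2 and 4, the livers farthest from the median of Rbm3, r was 0.949, and for deviations from the group means it was 0.842. The relation did not pass the threshold after adjustment.

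The other 3 relations examined were weaker. Clk1 and Clk4 levels had r = 0.625 (exact permutation p = 0.0890, adjusted 0.178) and rho = 0.476 (exact permutation p = 0.243, adjusted 0.486), and r fell to -0.32 without saline replicate 3 and 4-HPAA replicate 3, so that the relation rests on these livers. For their non-coding shares r was 0.00762 (exact permutation p = 0.986) and rho was -0.07 (exact permutation p = 0.882). For the non-coding shares of Srsf5 and Tra2a r was 0.270 (exact permutation p = 0.582, adjusted 0.776) and rho was 0.143 (exact permutation p = 0.752, adjusted 0.882).

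Much of the RNA of these genes was not in coding transcripts. Of the 414 transcripts, 178 are annotated as protein coding, 124 as retained intron, 60 as NMD targets and 52 as processed transcripts without a reading frame, and 392 had at least some count. Summed over the 42 genes, non-coding transcripts held 26.9%, 26.6%, 28.0% and 27.2% of counts in saline replicates 1 to 4 and 27.6%, 25.8%, 26.0% and 25.1% in 4-HPAA replicates 1 to 4. Replicates 2 to 4 of 4-HPAA were below all saline livers and replicate 1 was among the highest. In 12475 other protein-coding genes the share was 4.99%, 4.87%, 4.96% and 5.15% with saline and 5.05%, 4.52%, 4.61% and 4.46% with 4-HPAA. The same livers were thus low in the splicing factors and in the other genes, and the part of this in any single gene was not tested. Within the splicing factors most of the difference was in retained introns, at 15.8% ± 0.465 with saline and 14.9% ± 0.840 with 4-HPAA (SD, n = 4 each). Processed transcripts were at 4.04% ± 0.0991 and 3.82% ± 0.379, where again only 4-HPAA replicate 1 was not below all saline livers, and NMD transcripts were at 7.38% ± 0.433 and 7.44% ± 0.284.

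The median gene of the group had 20.998% of its counts in non-coding transcripts, beside 3.21% in the other protein-coding genes. The share was over 20% in 22 of the 42 genes (52.4%, against 20.03% of the others) and over 50% in 8 (19.0%, against 6.78%). The annotation lists more transcripts for these genes, with a median of 9 against 5, which bears on how many non-coding transcripts can take counts. At the low end, Hnrnpa0, Hnrnpab, Hnrnpf and Hnrnph2 have no annotated non-coding transcript, and in Hnrnpc, Hnrnpa3 and Hnrnpul1 such transcripts held under 1% of counts.

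**Figure D2:**
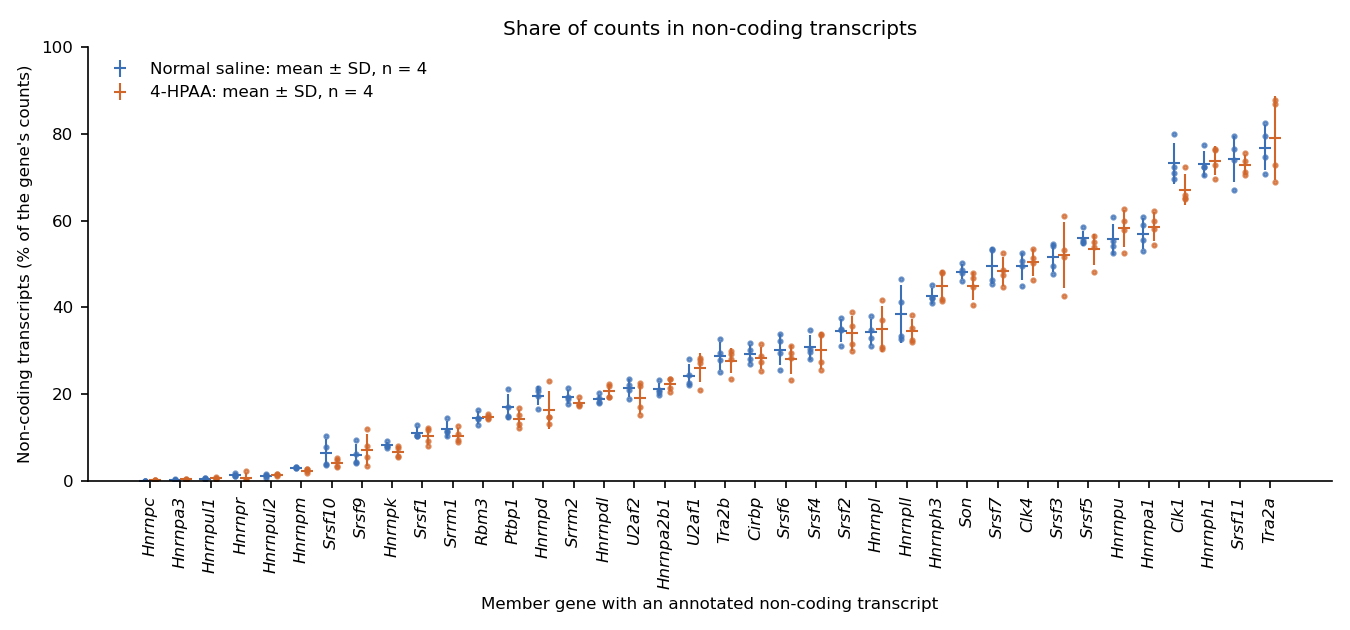
Share of each gene's estimated counts that fell to non-coding transcripts, for the 38 genes with at least 1 such transcript, ordered by the mean of the 8 livers. Points are livers and bars are mean ± SD (n = 4 per group). Shares run from near 0 in Hnrnpc to 77.9% in Tra2a, and in every gene but Hnrnpm the groups overlap.

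Tra2a had the largest mean share of counts, in a range that overlapped those of Srsf11 and Hnrnph1. It was 82.5%, 70.8%, 79.4% and 74.6% with saline and 68.8%, 86.9%, 87.8% and 72.8% with 4-HPAA, so the widest spread lay within the 4-HPAA group. An NMD transcript, Tra2a-202, which holds the poison exon printed above, made up 55.6% of the gene's counts on average. Srsf11 came next at 76.5%, 67.1%, 79.6% and 73.9% with saline and 73.8%, 75.5%, 71.3% and 70.6% with 4-HPAA, nearly all of it in retained introns (72.1% of the gene).

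Hnrnph1, which binds runs of G, had non-coding shares of 72.2%, 72.3%, 70.4% and 77.3% with saline and 76.2%, 69.5%, 72.8% and 76.6% with 4-HPAA. All of it was in processed transcripts, led by Hnrnph1-204 at 37.0% of the gene. In Clk1 the shares were 80.0%, 69.5%, 72.3% and 70.9% with saline and 72.4%, 65.2%, 65.9% and 65.01% with 4-HPAA. Only 4-HPAA replicate 1 lay within the saline range, and the log2 ratio of non-coding to coding counts differed by -0.43 (unadjusted p = 0.105, limma). Most of the non-coding Clk1 RNA was retained intron (49.0% of the gene), as in Clk4 (39.6%), and the Clk4 total was 49.6%, 45.0%, 52.5% and 50.6% with saline and 50.2%, 53.5%, 51.5% and 46.3% with 4-HPAA, with groups that overlap.

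The make-up varied within the families. Retained introns led the non-coding part in 8 of 10 SR genes and in 9 of the 17 hnRNP genes with non-coding counts, NMD transcripts led in 0 and 6, and processed transcripts in 2 and 2. In Srsf5, Srsf7, Srsf2 and Srsf3 retained introns made up 48.3%, 41.4%, 34.1% and 34.3% of the gene. In Hnrnpa1, a silencer of exons, the non-coding part (57.8%) was NMD transcripts throughout, and in Hnrnpu, a scaffold of chromatin and RNA, NMD transcripts led at 36.4%. Counts per kilobase of transcript, which give more weight to short transcripts, changed these shares and their order. The share rose by over 1.5 times in 12 of the 38 genes with non-coding counts, for instance from 18.7% to 61.8% in Srrm2, from 10.7% to 37.7% in Srsf1 and from 7.51% to 22.3% in Hnrnpk. On this scale 11 of the 42 genes were over 50%, Hnrnpu was highest at 81.7%, Tra2a (73.2%) came after Hnrnph1 (79.9%) and Srsf11 (79.8%), and the median was 33.2% against 7.70% in the other protein-coding genes.

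The non-coding to coding ratio differed between the groups in none of the 36 genes with at least 10 counts on average on each side. With limma, 0 passed with the adjusted and 0 with the unadjusted p, beside 0% and 4.41% of all genes tested. The groups did not overlap in 1 of the 36 genes, beside 2.49% of all genes tested. That gene, named after its values were seen, was Hnrnpm, at 3.05%, 3.29%, 2.96% and 3.21% with saline and 2.23%, 2.80%, 2.70% and 1.96% with 4-HPAA, all of the latter lower (log2 ratio difference -0.39, unadjusted p = 0.0663, limma). Of the 36 ratios 16 were higher and 20 lower with 4-HPAA.

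Exon inclusion was taken from transcripts that hold an exon with its exact ends, among these and the transcripts whose intron spans it. Transcripts that hold it only within a longer exon, or do not cover it, entered neither side. For a segment that is only part of an exon, any exon that spans it counted. In Clk1, for instance, 1 including and 3 skipping transcripts entered, of 13 annotated. The Srsf3 poison exon was included in 25.5%, 21.6%, 24.8% and 25.6% of counts with saline and in 25.0%, 34.9%, 27.4% and 19.4% with 4-HPAA. For Tra2b the values were 21.4%, 21.3%, 25.3% and 21.6% with saline and 22.5%, 29.3%, 22.1% and 15.3% with 4-HPAA. In both genes the saline livers were close together, and 4-HPAA replicate 2 was the highest and replicate 4 the lowest of the 8 livers. The group means were 24.4% ± 1.87 and 26.7% ± 6.41 for Srsf3 and 22.4% ± 1.94 and 22.3% ± 5.71 for Tra2b (SD, n = 4 each), closer together than the livers within the 4-HPAA group. The exact permutation p of the difference was 0.629 for Srsf3 and 1.00 for Tra2b.

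Set beside the gene levels, 4-HPAA replicate 2, with the highest inclusion, had the lowest level of both genes (39.0 CPM for Srsf3 and 23.9 CPM for Tra2b). 4-HPAA replicate 4, with the lowest inclusion, had the highest Srsf3 level (60.5 CPM) and the third highest Tra2b level (30.7 CPM). The other 6 livers lay between these in inclusion, and saline replicate 1 had high levels of both genes at middling inclusion. In Tra2a, inclusion was 69.2%, 58.4%, 59.9% and 61.2% with saline and 54.6%, 69.4%, 71.1% and 54.7% with 4-HPAA, with 4-HPAA replicates 2 and 3 high and replicates 1 and 4 low. 4-HPAA replicates 2 and 3 had low Tra2a levels (16.2 and 16.1 CPM), and replicate 4 had a high one (18.3 CPM). Saline replicate 1 (18.9 CPM) was high in both level and inclusion, and 4-HPAA replicate 1 (16.3 CPM) was low in both.

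**Figure D3:**
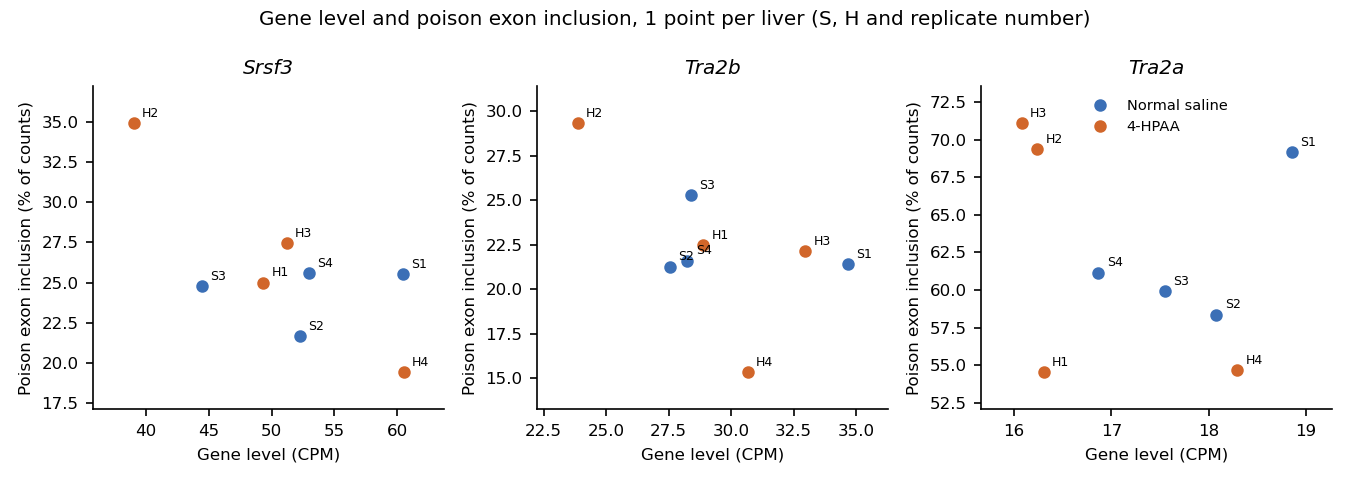
Poison exon inclusion (percent of counts) against gene level (CPM) for Srsf3, Tra2b and Tra2a, with 1 point per liver marked S (saline) or H (4-HPAA) and its replicate number. For Srsf3 and Tra2b the liver H2 sits at top left, at 34.9% and 29.3% inclusion, and H4 at the bottom.

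The shared exon of the kinases, whose skipping removes the catalytic part from the protein, was included more variably. In Clk1 inclusion was 51.1%, 72.0%, 63.4% and 69.0% with saline and 67.3%, 79.5%, 70.7% and 72.6% with 4-HPAA. In Clk4 it was 43.1%, 62.9%, 52.2% and 60.7% with saline and 56.6%, 60.6%, 61.3% and 56.9% with 4-HPAA. Saline replicates 1 and 3 were the lowest livers of both paralogs. The groups overlapped, at 63.9% ± 9.24 and 72.5% ± 5.11 for Clk1 (exact permutation p = 0.171) and 54.7% ± 9.05 and 58.8% ± 2.42 for Clk4 (exact permutation p = 0.486).

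The Hnrnpab cassette exon was included in 39.1%, 42.1%, 40.8% and 41.3% of counts with saline and in 42.2%, 48.4%, 43.7% and 43.2% with 4-HPAA. All 4-HPAA livers lay above all saline livers, though the nearest pair differed only in the second digit (42.10% and 42.18%). These values set Hnrnpab-203 against Hnrnpab-201 only. The transcript Hnrnpab-202, whose share of the gene was lower with 4-HPAA (described below), entered neither side. Whether the groups stay apart with it counted was not tested. The share of the whole gene held by Hnrnpab-201, which skips the exon, overlapped between the groups. The difference of 3.57 points had the smallest p that 4 against 4 livers allow (exact permutation test, p = 0.0286), and 0.229 after adjustment for the 8 exons examined. The cassette exon of Hnrnpd, also called AUF1, which binds AU-rich RNA, was at 65.9% ± 4.81 and 64.5% ± 1.48, and an optional segment of 42 bases in Srrm1 at 50.8% ± 7.16 and 46.7% ± 3.00.

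**Figure D4:**
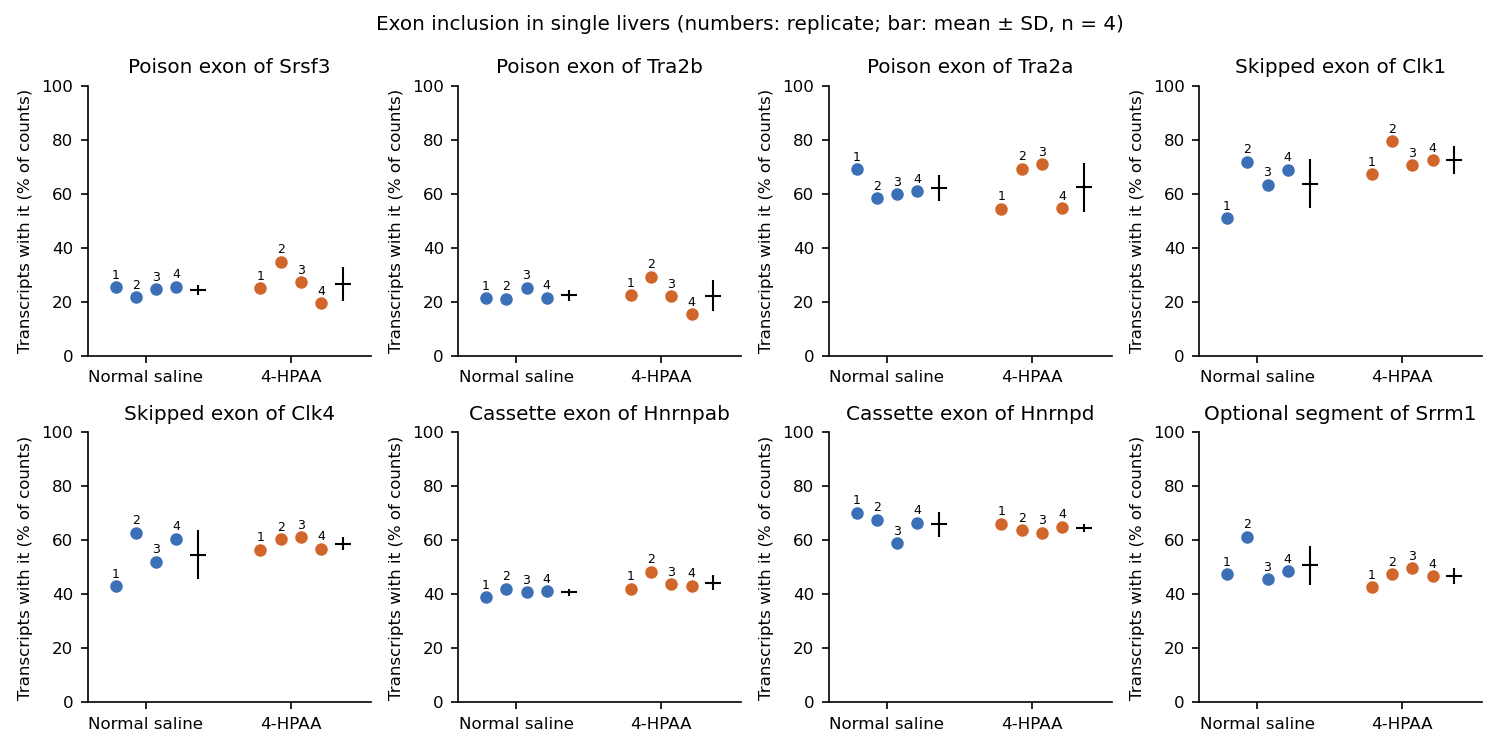
Inclusion of 8 exons or segments in each liver, as percent of the counts of the transcripts counted as holding or skipping it. The replicate number is above each point and mean ± SD beside each group (n = 4). The Hnrnpab cassette exon is the only panel without overlap, at 40.8% ± 1.28 with saline and 44.4% ± 2.77 with 4-HPAA.

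At the level of single transcripts, 229 of the 414 had at least 10 counts in every library. With edgeR 0 had an adjusted p under 0.05, beside 0% of all transcripts tested, and 13 (5.68%) had an unadjusted p under 0.05, beside 3.83% of all. limma-voom also gave 0, with 12 at an unadjusted p under 0.05, and DESeq2 gave 1, the transcript Hnrnpab-202. The shares of all transcripts that these alternatives call are not given here, so their member counts cannot be set against a background. The groups did not overlap (in CPM) in 8 transcripts (3.49%), beside 2.1% of all, and 2 of the 8 were higher and 6 lower with 4-HPAA.

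Hnrnpab-202, a minor coding transcript of Hnrnpab (chr11:51600100-51606847, where Phykpl overlaps on the other strand), had 174, 145, 162 and 125 counts with saline and 96.9, 90.1, 95.5 and 80.3 counts with 4-HPAA. Every 4-HPAA liver was lower than every saline liver. The log2 fold change was -0.71 (standard error 0.16, unadjusted p = 0.00156, adjusted p = 1.00, edgeR), while DESeq2 gave an adjusted p of 0.0261. Its share of the gene was 5.44%, 5.53%, 5.80% and 4.67% with saline and 3.79%, 3.01%, 2.79% and 2.37% with 4-HPAA, a difference of -2.37 points (standard error 0.384). Hnrnpab-203, which carries the cassette exon, took 38.6% ± 1.26 with saline and 43.1% ± 2.74 with 4-HPAA, again without overlap. The gene-level test of transcript shares for Hnrnpab had an unadjusted p of 0.00149 and an adjusted p of 0.195 (edgeR diffSpliceDGE). In the same test at the level of single transcripts, no Hnrnpab share had an unadjusted p under 0.05, that of Hnrnpab-202 included.

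Several other transcripts without overlap, named after their values were seen, were non-coding and lower with 4-HPAA. Hnrnpd-208, an NMD transcript, had 181, 132, 148 and 192 counts with saline and 120, 103, 104 and 101 with 4-HPAA, a log2 fold change of -0.58 (standard error 0.18, unadjusted p = 0.0094, edgeR). Its share of Hnrnpd was 11.6% ± 1.92 with saline and 7.91% ± 1.25 with 4-HPAA. The retained-intron transcripts Clk1-213, Son-214 and U2af2-206 had log2 fold changes of -0.70, -0.23 and -0.31, and the coding Rbm3-202 one of -0.43. The transcripts Hnrnpf-202 and Hnrnpll-205, both coding, were the 2 without overlap that were higher, at 0.59 and 0.29 on the log2 scale. None of these had an adjusted p under 0.05 in edgeR or DESeq2.

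Shares of transcripts within their gene were tested for 285 transcripts. With edgeR's diffSpliceDGE 1 had an adjusted p under 0.05, beside 0.153% of all 30663 transcripts tested, and 9 (3.16%) had an unadjusted p under 0.05, beside 1.94%. The groups did not overlap in 7 (2.46%), beside 2.51%, and 4 of the 7 were higher and 3 lower. The test lends all transcripts of a gene one estimate of spread, and on simulated libraries with the spread of these transcripts and no planted change it made calls as well, of about the same number as in the real table. Of the 47 transcripts called in the whole table, 40 had under 1 count in at least 1 library.

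The transcript called was Srrm1-208, a coding transcript of Srrm1 (chr4:135320484-135353321), a coactivator that joins SR proteins to the splicing machinery. It had 4.47 and 26.9 counts in saline replicates 2 and 3, 213 and 180 counts in 4-HPAA replicates 2 and 3, and under 1 count in replicates 1 and 4 of both groups. The transcript was thus found in the same replicate numbers of both groups, though near the floor in saline replicate 2, and at under 1 count in the other 4 livers. The groups therefore overlap. Its share of Srrm1 reached 13.3% and 11.1% in 4-HPAA replicates 2 and 3 and 1.69% in saline replicate 3. The log2 fold change against the rest of the gene was 2.53 (adjusted p = 0.0275, edgeR). The call was lost without 4-HPAA replicate 2 (adjusted p = 0.401, edgeR), without 4-HPAA replicate 3 (0.362), without saline replicates 1, 2 or 4 (0.277, 0.204 and 0.246) and with limma's diffSplice (adjusted p = 1.00). Beside it, the summed Kupffer cell markers were at 219 and 151 CPM in saline replicates 2 and 3, at 188 and 103 CPM in 4-HPAA replicates 2 and 3 and between 62.6 and 142 CPM in the other livers; their part in the result was not tested.

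Other transcripts with low p for their share were likewise present or absent by liver. Srrm2-201, a coding transcript, had 3019, 2437, 2575 and 3033 counts with saline and 3002, 0.251, 504 and 1277 with 4-HPAA, with 4-HPAA replicate 1 within the saline range and replicate 2 at almost 0. In the livers where it was low, Srrm2-210, the main coding transcript, was high, at 82.5% and 76.5% of the gene in 4-HPAA replicates 2 and 3 against 43.8% to 61.7% elsewhere. The share test gave Srrm2-201 a log2 value of -0.71 and an adjusted p of 1.00 (edgeR), while limma's diffSplice called it (adjusted p = 0.0386). The share of all transcripts that diffSplice calls is not given here, so this call cannot be set against a background.

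Hnrnpl, which binds CA repeats, moved between both of its main coding transcripts. Hnrnpl-201 had 257, 447, 507 and 325 counts with saline and 454, 499, 1130 and 803 with 4-HPAA. Hnrnpl-202 had 1057, 712, 698 and 1031 counts with saline and 829, 761, 215 and 462 with 4-HPAA. Replicates 3 and 4 of 4-HPAA had the most of the first and the least of the second, and replicates 1 and 2 lay within the saline range for the second. The adjusted p of the share was 0.210 for Hnrnpl-201 and 1.00 for Hnrnpl-202 (edgeR), while the level of the gene was the steadiest of all 42.

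Hnrnph1-205, a processed transcript, had 288, 194, 0.743 and 382 counts with saline and 83.2, 0.226 and 65.4 counts in 4-HPAA replicates 1, 3 and 4, with almost none in replicate 2. It was absent in saline replicate 3 as in 4-HPAA replicates 2 and 3 (adjusted p of the share 0.202, edgeR). Hnrnpk-217, a retained-intron transcript of a KH-domain hnRNP that binds C-rich RNA, had 159, 86.8, 103 and 196 counts with saline and 175, 0, 17.3 and 28.2 with 4-HPAA, where replicate 1 alone was as high as the saline livers. Srsf10-201, from an SR protein that represses splicing when dephosphorylated, was between 0 and 69.7 counts with saline and at 17.4 counts in 4-HPAA replicate 2, with almost none in the other 4-HPAA livers. The shares of both had an adjusted p of 1.00 (edgeR). Hnrnpa2b1-209 and Hnrnpd-204, both NMD transcripts, were the remaining transcripts with an unadjusted p under 0.05. Hnrnpd-204 had 8.08, 8.70, 13.8 and 11.6 counts with saline and 23.6, 22.3, 22.1 and 51.7 with 4-HPAA, every 4-HPAA liver being higher (unadjusted p = 0.0454, edgeR).

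**Figure D5:**
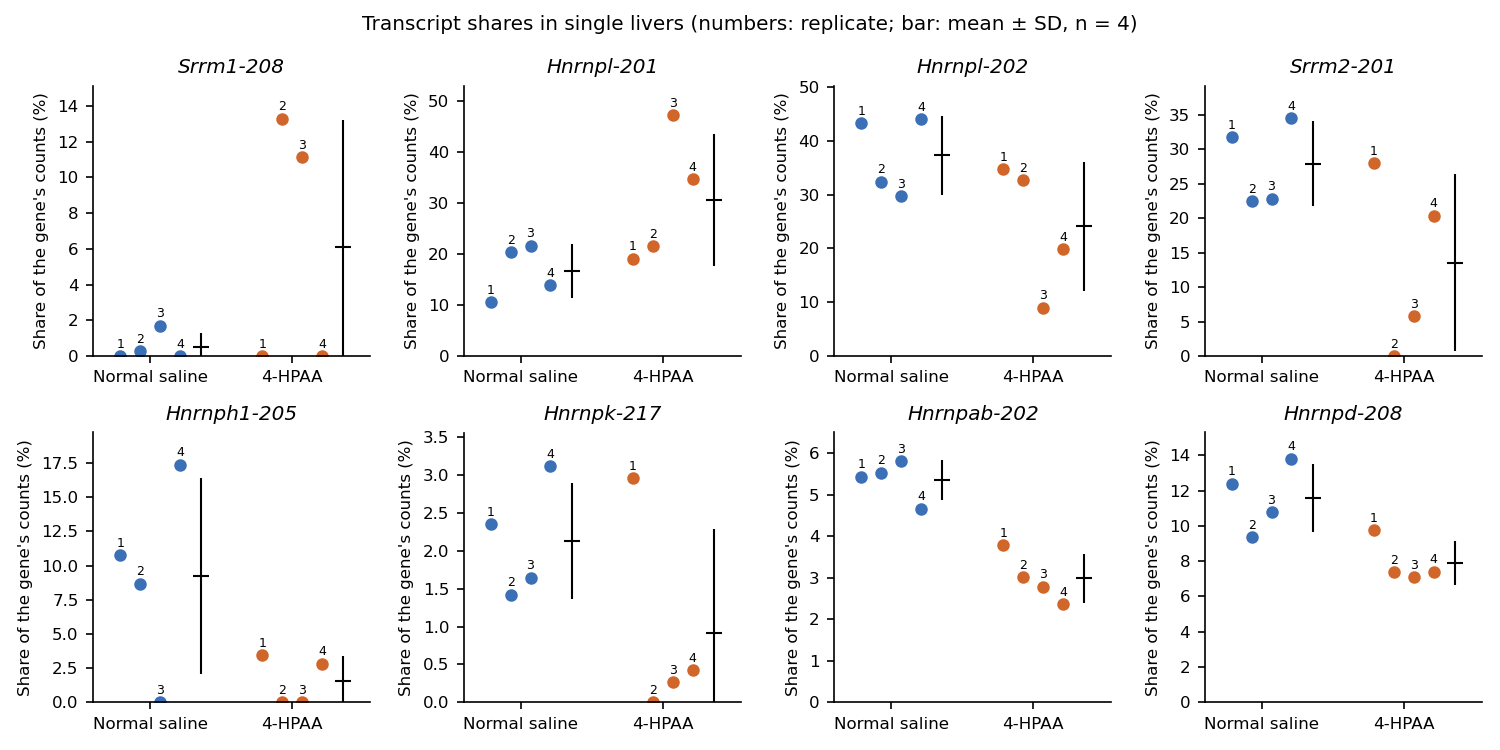
Share of 8 transcripts in the counts of their gene, in percent, by liver, with the replicate number above each point and mean ± SD beside each group (n = 4; bars end at 0). Srrm1-208 is highest in 4-HPAA replicates 2 and 3, at 1.69% in saline replicate 3 and at or near 0 in the other livers. Hnrnpab-202 is the panel with the clearest gap, at 5.36% ± 0.485 and 2.99% ± 0.595.

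Other genes of the splicing pathway were examined by list. Of 30 spliceosome components, 0 passed and 0 had an unadjusted p under 0.05 with edgeR, DESeq2 and limma-voom alike, with 11 higher and 19 lower. Among 26 of 28 other splicing regulators the counts were again 0 and 0 with each tool, with 6 higher and 20 lower, and the same held for 6 further kinases of SR proteins (0 higher, 6 lower) and 10 NMD factors (6 higher, 4 lower). The median non-coding share was 3.14% in the spliceosome genes, 7.69% in the other regulators, 46.4% in the kinases and 6.42% in the NMD factors, so that of these lists only the kinases exceeded the 20.998% of the splicing factors.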

How the data were processed

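The 8 liver libraries (4 normal saline, 4 4-HPAA) were prepared with a directional Illumina mRNA kit and sequenced on an Illumina instrument. The authors deposited estimated counts per transcript, made with kallisto, per the submitters' processing notes, by pseudo-alignment to GRCm38.p6 after FastQC 0.11.9, not normalized. The study's methods give standard parameters for kallisto and name no strand option, so the counting is taken not to use strand. Another gene on the other strand overlaps 10 of the 42 genes (Hnrnpab, Hnrnph3, Hnrnpk, Hnrnpll, Hnrnpu, Srsf2, Ptbp1, Clk4, Son and Srrm2). Reads from any sequence that transcripts of both genes hold cannot be told apart. The file holds no estimate of how uncertain the split of reads among similar transcripts is, so intervals cover the spread between livers only. Retained-intron transcripts may also take reads of unspliced RNA, and pseudogene copies may share reads.

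Of 119414 transcripts, 116728 were matched by identifier to GENCODE M21, and the rest (0.703% to 1.06% of counts) were left out. Counts were rounded, summed per gene and filtered at 10 counts in every library, scaled by TMM and tested with edgeR 4.0.16 (quasi-likelihood, Benjamini-Hochberg adjustment over all features, threshold 0.05). Transcript shares were tested with diffSpliceDGE for transcripts with a mean of at least 10 counts. Ratios of non-coding to coding counts, with a pseudocount of 0.5 and a mean of at least 10 counts on both sides, were tested with limma 3.58.1. DESeq2 1.42.0 and limma-voom were alternatives. Steps were tested on simulated data, where edgeR recovered most planted changes of genes but a minority of those of transcripts, with few false calls in both, and diffSpliceDGE recovered few changes and made false calls when the transcripts of a gene differed in spread, so that its adjusted p is too small for such genes.

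Depth was 29559978 to 30673398 counts. The labels number the replicates without saying that each is a separate mouse and give no sex, so p-values measure only the spread between these samples, which may be technical. The genes were grouped by function, and genes, lists and exons were all chosen with earlier results of these data known. Values in every liver are given for the 6 genes with the smallest gene-level p, the 6 with the smallest share p, the 4 with the largest non-coding share, the 4 with the widest spread, and Hnrnpab, Rbm3, Cirbp, Clk1, Clk4, Srsf3 and Tra2b.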

Additional observations from a re-analysis of the deposited data

Results flagged for a closer look

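Of 196 groups of 4 livers examined for levels, shares and exon inclusion, 16 held a liver far apart from the other 3, by the gap to the nearest liver over the range, and chance alone flags about 1 in 20. In CPM, saline replicate 1 was high for Hnrnpab (102 against 90.1 to 91.9), Hnrnpc (76.8 against 66.2 to 67.8) and Tra2b (34.7 against 27.6 to 28.4). Saline replicate 3 was high for Hnrnph3 (16.6 against 14.7 to 14.96) and saline replicate 4 for Srsf1 (46.0 against 41.6 to 41.8). 4-HPAA replicate 4 was high for Hnrnpk (234 against 207 to 209) and Tra2a (18.3 against 16.1 to 16.3).

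Of the non-coding shares, that of Srsf1 was high in saline replicate 3 (13.0% against 10.3% to 10.6%), that of Clk1 was high in 4-HPAA replicate 1 (72.4% against 65.01% to 65.9%), and that of U2af1 was low in 4-HPAA replicate 4 (21.1% against 27.2% to 28.3%). The Tra2b poison exon was included most in saline replicate 3 among the saline livers (25.3% against 21.3% to 21.6%).

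Among transcript shares, Srrm1-208 was high in saline replicate 3 (1.69% against at most 0.278%) and Srsf10-201 in 4-HPAA replicate 2 (1.82%, the other 3 at or near 0). 4-HPAA replicate 1 was high for Hnrnpk-217 (2.95% against 0 to 0.421%) and Hnrnpd-208 (9.77% against 7.08% to 7.41%), and 4-HPAA replicate 2 was low for Hnrnpab-201 (50.02% against 54.7% to 55.6%).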

How the results depend on the processing

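Gene levels (0 called) and non-coding ratios (0 called) gave 0 calls under every alternative run. Transcript levels gave 0 calls except 1 with DESeq2 (Hnrnpab-202). The 1 call for transcript shares became 0 with at least 10 counts in every library, 0 with transcripts holding at least 5% of their gene and 0 when replicate numbers entered as blocks, and 0 to 3 with a library left out. The number of genes higher with 4-HPAA ranged from 11 to 25 with a library left out. The pooled non-coding share differed by -1.04 points, by 0.0551 points for NMD transcripts alone and by -1.53 to -0.704 points with a library left out. The cause was not tested. Among single genes, levels took the other sign without saline replicate 1 or 4-HPAA replicate 2 for Srsf3 (-0.18 to 0.0308 on the log2 scale over all libraries left out), U2af1 (-0.15 to 0.0516, replicate 2 only), Rbm3 (-0.13 to 0.0535), Cirbp (-0.0897 to 0.0240) and Tra2b (-0.0949 to 0.0544). Without 4-HPAA replicate 1, Hnrnpk-217 (adjusted p = 4.45e-04, edgeR) and Hnrnpl-201 (0.0396) were called, and without saline replicate 3 Hnrnph1-205 (0.0198). For Hnrnpk-217 and Hnrnph1-205 the liver left out was one that lay with the other group. The shares of all transcripts called in these fits are not given here, so these calls cannot be set against a background. Deviations of same-numbered livers correlated at 0.0405, 0.167, 0.270 and 0.483 for numbers 1 to 4, and 2 of the 4 saline livers correlated best with the 4-HPAA liver of their own number, so the numbers were not taken as pairs. With the replicate block Srrm1-208 had a log2 share change of 2.70 (adjusted p = 0.0918, edgeR), and no member gene, transcript or ratio was called. Estimated counts near 0 limit the shares of minor transcripts.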
